A study of Mus musculus with 7 samples.

Results

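Molecular chaperones were followed in ribosome profiling of primary epidermis, the surface layer of skin, from mice that lacked or carried Pelo. The set held the genes whose symbols begin with Hsp (without Hspg2, a matrix proteoglycan), Dnaj or Cct followed by a digit, plus Tcp1. It came to 73 of 13163 transcripts with a symbol, of which 27 belonged to the Hsp class, 38 to the Dnaj class and 8 to the Cct class with Tcp1. No member symbol was repeated in the table. The label holds for nearly all of them, but 3 Hsp symbols name other kinds of protein: Hspbp1 is an exchange factor for HSP70, Hspbap1 a partner of Hspb1, and Hspb11 a component of intraflagellar transport.

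Transgenic knockout of Pelota (KO), with 2 ribosome profiling libraries, was set against wild type (WT), also with 2 libraries. A footprint is a fragment of mRNA protected by a ribosome, and its count over a coding region measures the ribosomes on it. The labels call the tissue epidermis and the material a primary cell type, state that total RNA was depleted of ribosomal RNA, and cite other work for how cells were grown. The sources used here do not give the allele, its driver, the strain, the age or whether replicates came from separate animals, so p-values measure the spread between these libraries only. RNA-seq libraries, 2 from KO and 1 from WT, were not analysed here, so a difference in footprints can come from mRNA level or from ribosomes per mRNA.

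Chaperones bind unfolded or newly made proteins and keep them from aggregating. HSP70 proteins hold short stretches of a client and release them in a cycle driven by ATP; DNAJ proteins deliver clients and start that cycle, and exchange factors end it. HSP90 acts later on receptors and kinases, small heat shock proteins hold clients without ATP, and the chaperonin TRiC, a ring built from Tcp1 and the Cct subunits, folds actin and tubulin in a closed chamber. Under heat or misfolded protein, heat shock factor binds inverted GAA repeats in promoters of chaperone genes, while stress in the endoplasmic reticulum (ER) acts through another promoter element. In skin, chaperones are known for their part in keratinocyte differentiation and stress. Pelota is known to release ribosomes that have stalled on mRNA.

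Promoter sequences are shown first for the genes that carry these elements, to set them beside the footprint values. RefSeq windows of build GRCm38.p6, which is not the mm9 build of the deposited counts, were found for 60 of the 73 members, and the 250 bases before each start were searched on both strands. The triplet GAANNTTCNNGAA or TTCNNGAANNTTC was present in 3 of these 60 members, Hspd1, Hspe1 and Dnajb6, against 0.514% of 27025 genes, and footprints on all 3 were higher in KO. Over all genes tested, 19.9% were called higher, and of the tested members 29.4%. Hspd1 and Hspe1 share the same matched bases, and the call of Dnajb6 was lost under several alternatives. A link between the element and the footprints was not tested. Matched bases are in capitals, with 25 bases or up to the start on either side, 5′ to 3′ on the strand of the gene.
Hspd1, chr1:55088034-55088101, minus strand: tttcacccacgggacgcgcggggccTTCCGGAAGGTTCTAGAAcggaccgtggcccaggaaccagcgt
Hspe1, chr1:55088034-55088101, plus strand: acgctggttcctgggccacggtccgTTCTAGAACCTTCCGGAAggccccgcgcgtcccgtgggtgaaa
Dnajb6, chr5:29735827-29735889, plus strand: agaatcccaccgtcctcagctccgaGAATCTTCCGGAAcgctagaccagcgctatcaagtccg

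The first 2 of these are the same bases read from opposite strands: Hspd1 and Hspe1 start in opposite directions from one shared stretch. The shorter pair GAANNTTC or TTCNNGAA, which the triplet contains, was present in 14 of the 60 matched members (23.3%) and in 14.5% of all genes. Of these 14 members, 6 were called higher in KO, 2 were lower and 6 were not called. Over all genes tested, 19.9% were higher and 19.1% lower. Members without a window were not searched. Among them Hspa8, Hsp90aa1, Hsp90ab1, Hspa9, Dnajc11 and Dnajc2 were called higher, and the rest were not called or not tested. How the match goes with direction over all members is therefore not known. It is shown for 2 TRiC subunits that were higher, for Dnaja4, which was lower, and for Hspa1a and Hspa1b, whose printed stretch is the same and whose 250 bases differ at 3 positions.
Cct2, chr10:117063385-117063442, minus strand: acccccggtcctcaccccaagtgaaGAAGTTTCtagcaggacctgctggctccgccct
Cct5, chr15:31601848-31601905, minus strand: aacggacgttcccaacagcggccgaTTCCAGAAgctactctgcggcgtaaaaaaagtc
Dnaja4, chr9:54699444-54699539, plus strand: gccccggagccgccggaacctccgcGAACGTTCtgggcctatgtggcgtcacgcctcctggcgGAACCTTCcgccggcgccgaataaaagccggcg
Hspa1a, chr17:34972228-34972285, minus strand: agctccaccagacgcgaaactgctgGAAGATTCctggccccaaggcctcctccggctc

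The ER stress element, with the letters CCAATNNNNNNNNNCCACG or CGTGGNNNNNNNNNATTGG, was present in 3 members, Hspa5, Hsp90b1 and Dnajc3, against 0.13% of all genes. None of these 3 was called in either direction, while 39.0% of all genes tested were called. Their stretches are shown as the counterpart to the group above; Hsp90b1 holds the element on both strands.
Hspa5, chr2:34772000-34772068, plus strand: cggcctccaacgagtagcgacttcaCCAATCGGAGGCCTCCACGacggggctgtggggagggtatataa
Dnajc3, chr14:118937802-118937870, plus strand: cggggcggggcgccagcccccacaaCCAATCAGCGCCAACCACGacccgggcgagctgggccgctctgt
Hsp90b1, chr10:86705508-86705681, minus strand: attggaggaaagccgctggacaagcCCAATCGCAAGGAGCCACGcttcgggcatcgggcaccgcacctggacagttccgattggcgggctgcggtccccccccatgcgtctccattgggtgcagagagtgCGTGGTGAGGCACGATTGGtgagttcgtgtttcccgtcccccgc

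The KO libraries held 4925591 and 4521355 coding footprints, the WT libraries 5281874 and 4221429, and the median listed transcript had 90 to 112. Pelo itself had counts of 24 and 21 in KO and 101 and 61 in WT. Cell type markers were summed as a percentage of all coding counts in a library. The 6 basal keratinocyte markers came to 2.34% and 2.10% in KO libraries, against 1.18% and 1.30% in WT libraries, and the 6 suprabasal markers to 5.20% and 4.86% in KO libraries, against 1.97% and 1.75% in WT libraries. The 6 fibroblast markers came to 3.82% and 4.36% in KO libraries, against 8.21% and 12.3% in WT libraries, so the material was not keratinocytes alone. Of the single basal markers, Krt5 and Krt14 were called higher, Col17a1 lower and the other 3 neither. Of the 6 suprabasal markers, 5 were called higher. Called lower were 4 of the 6 fibroblast markers, 2 of 4 smooth muscle, 3 of 4 adipocyte and 2 of 4 T cell markers. All 4 melanocyte markers were called higher, by 9.56- to 13.7-fold, and summed to 0.0285% and 0.0146% in KO libraries, against 0.0021% and 0.0024% in WT libraries. Of 4 sebaceous gland markers listed in every library, 3 were called lower, and the 5 in the table summed to 0.0456% and 0.0845% in KO libraries, against 0.284% and 0.268% in WT libraries. Smooth muscle markers summed to 0.0504% and 0.072% in KO libraries, against 0.176% and 0.176% in WT libraries. In such bulk samples, fewer cells of a type and less RNA per cell cannot be told apart, and the part of the cell mix in the results below was not tested.

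Coding footprints changed on 27 of the 68 members that could be tested, 20 higher and 7 lower in KO. A gene was called where edgeR's quasi-likelihood test gave a Benjamini-Hochberg adjusted p under 0.05 over 10951 genes. That is 39.7% of members, against 39.0% of all genes tested, so members as a whole were called about as often as other genes. In single directions, 29.4% of members were higher, against 19.9% of all genes, and 10.3% were lower, against 19.1%. The genotypes did not overlap for 49 of the 68 members (72.1%), against 71.9% of all genes. For 33 members (48.5%) both KO libraries lay above both WT libraries, against 35.4% of all genes. The median log2 change of the members was 0.16 and that of all genes -0.02. Scaling by library totals in place of TMM lowered the median log2 change over all genes by 0.18 and gave 11 members higher and 10 lower, with 1500 genes higher and 3022 lower overall against 2183 and 2092.

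The 3 classes differed in their counts. Of the 8 Cct members, 7 were higher and none lower; of 26 Hsp members, 9 were higher and 6 lower; of 34 Dnaj members, 4 were higher and 1 lower, leaving 29 not called. In either direction that is 87.5% of Cct members, 57.7% of Hsp members and 14.7% of Dnaj members, against 39.0% of all genes. Called higher were 19.9% of all genes tested, and called lower 19.1%. The median log2 change was 0.55 in the Cct class, 0.24 in the Hsp class and 0.01 in the Dnaj class. The median count per member was 1084 in the Cct class, 458 in the Hsp class and 125 in the Dnaj class, and 117 over all genes, so precision differed between classes. With library totals, 5 Cct members were higher and 0 lower, 5 Hsp members higher and 8 lower, and 1 Dnaj member higher and 2 lower. A difference between the classes was not itself tested.

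As a share of coding footprints, the Cct class held 0.198% and 0.204% in KO libraries and 0.160% and 0.152% in WT libraries. The Hsp class held 1.22% and 1.25% in KO and 1.19% and 1.14% in WT, and the Dnaj class 0.122% and 0.127% in KO and 0.135% and 0.126% in WT. KO and WT shares did not overlap for the Cct and Hsp classes, while the Dnaj shares did. A two-sided exact permutation test gave p = 0.33 for the Cct and Hsp shares, the smallest that 2 against 2 libraries allow, and p = 0.67 for the Dnaj share. The Hsp difference, KO minus WT, was 0.0677 percentage points. It became -0.0427 without Hspa8, Hsp90ab1 and Hspa5, abundant members whose log2 changes were all positive (0.70, 0.37 and 0.18). The abundant Hspb1 was kept, as were Hspa1a and Hspa1b, with log2 changes of -0.30 and -0.27. The sign thus depends on which members were left out.

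**Figure D1:**
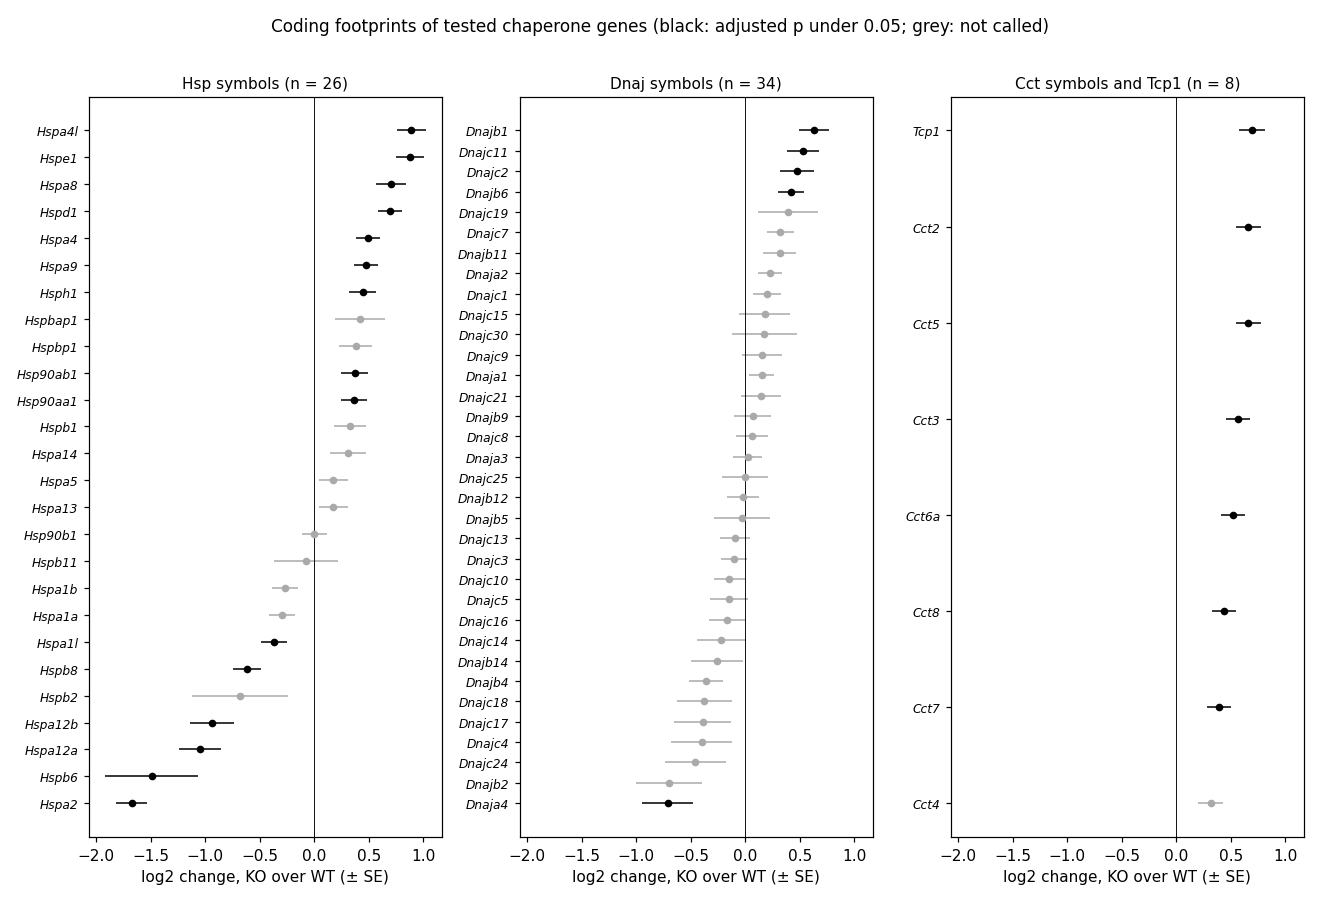
Log2 change of coding footprints, KO over WT, with its standard error (horizontal axis) for each tested member of the Hsp, Dnaj and Cct classes, each sorted by change; black points passed an adjusted p of 0.05 and grey points did not. All 8 Cct points lie right of 0, Hsp points run from -1.67 to 0.89, and 29 of 34 Dnaj points are grey.

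All 8 TRiC subunits had more footprints in KO, and 7 passed the test (87.5%, against 19.9% of all genes called higher). Levels below are CPM (footprints normalised to library size) per kb of coding sequence. Tcp1 stood at 177 and 197 in KO and 120 and 111 in WT. Cct2 stood at 168 and 180 in KO and 111 and 109 in WT. Cct5 stood at 217 and 191 in KO and 126 and 131 in WT. For every subunit both KO libraries lay above both WT libraries, against 35.4% of all genes. The log2 changes were 0.70 ± 0.12 (SE) for Tcp1, 0.66 ± 0.11 for Cct2 and 0.66 ± 0.12 for Cct5, with adjusted p of 0.00156, 0.00158 and 0.00203.

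Cct3 stood at 173 and 163 in KO and 118 and 109 in WT, with a log2 change of 0.57. Cct6a, at 157 and 161 in KO and 107 and 114 in WT, changed by 0.52. Cct8, at 175 and 176 in KO and 129 and 130 in WT, changed by 0.44. These 3 also passed the test, with adjusted p of 0.00373 to 0.0107, though with library totals Cct8 did not (0.0843). Cct7, at 176 and 179 in KO and 140 and 131 in WT, changed by 0.39 (adjusted p 0.0203). Its call was lost with library totals (edgeR, adjusted p 0.173) and by DESeq2 (adjusted p 0.0725). It was also lost when either KO library or WT replicate 2 was left out. Cct4 stood at 142 and 132 in KO and 106 and 114 in WT, and its log2 change of 0.32 did not pass (adjusted p 0.0524).

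The mean over the 8 subunits was 173 and 173 in KO and 120 and 119 in WT. The subunits enter the ring in equal numbers, and their levels lay close together: the highest was 1.53 and 1.49 times the lowest in KO and 1.33 and 1.2 times in WT. The coefficient of variation over the subunits was 12.3% and 11.9% in KO and 9.97% and 8.49% in WT, wider in both KO libraries (exact permutation p = 0.33, the smallest possible). Averaged over the 4 libraries, whose genotype means differ, Cct5 was highest at 166 ± 44.6 (SD) and Cct4 lowest at 123 ± 16.5. In KO alone these 2 also held the ends of the order. In WT alone Cct7 was highest at 136 ± 6.40, while Cct2 (110 ± 1.36) and Cct4 (110 ± 6.24) shared the lowest place (SD, n = 2). Of neighbours in the order over the 4 libraries, Cct7 lay above Cct8, Tcp1 above Cct2 and Cct6a above Cct4 in all 4 libraries; the other neighbours changed places between libraries.

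Hspd1 and Hspe1, the barrel and lid of the mitochondrial chaperonin HSP60 and HSP10, were both higher in KO. Hspd1 stood at 210 and 215 per kb in KO and 124 and 138 in WT, a log2 change of 0.70 ± 0.11 (adjusted p 0.00133). Hspe1 stood at 220 and 238 per kb in KO and 126 and 123 in WT, a log2 change of 0.88 ± 0.13 (adjusted p 0.000822). Hspe1 over Hspd1 was 1.05 and 1.11 in KO and 1.01 and 0.895 in WT, so the pair that shares the promoter stretch above stayed close to equal in every library. Hspe1 is short and has processed copies elsewhere in the genome, so how shared reads were counted limits its value.

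**Figure D2:**
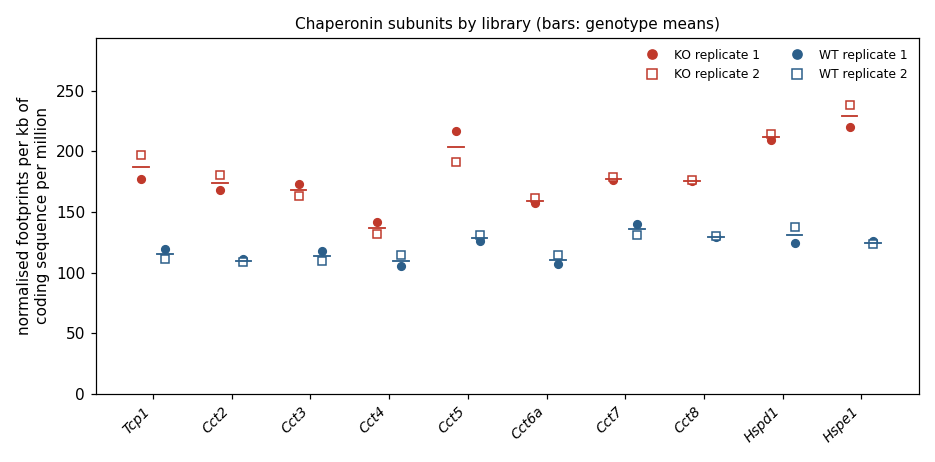
CPM per kb of coding sequence (vertical axis) for the 8 TRiC subunits and for Hspd1 and Hspe1, with 1 point per library and a bar at each genotype mean, KO left of WT. For every subunit both KO points lie above both WT points; TRiC averages 173 and 173 in KO and 120 and 119 in WT.

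Of 8 tested mitochondrial chaperones, Hspd1, Hspe1, Hspa9 and Dnajc11 were called higher (50%, against 19.9% of all genes). None was called lower, against 19.1% of all genes. By DESeq2 and with library totals 3 were higher and 0 lower, and at an unadjusted p under 0.05, 4 were higher and 0 lower. Their median log2 change was 0.44. Hspa9, the HSP70 of the mitochondrial matrix, had 363 and 367 CPM in KO and 255 and 270 CPM in WT, a log2 change of 0.48 ± 0.11 (adjusted p 0.00768). Dnajc11, known from the complex that shapes the inner membrane, had 33.5 and 31.6 CPM in KO and 22.2 and 23.1 CPM in WT, a log2 change of 0.53 ± 0.15 (adjusted p 0.019). Its call was lost with library totals (edgeR, adjusted p 0.0913), by DESeq2 (adjusted p 0.141), without KO replicate 1 and without WT replicate 1. Grpel1, the exchange factor of Hspa9, was also higher, with 42.6 and 52.3 CPM in KO and 33.4 and 32.8 CPM in WT (log2 change 0.52, adjusted p 0.0211). The call of Grpel1 was lost with library totals. Dnaja3, Dnajc15, Dnajc19 and Dnajc30 were not called, with log2 changes of 0.02 to 0.39.

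In the ER lumen group, none of 8 tested members was called by edgeR with all libraries, against 39.0% of all genes. DESeq2 called 0, against 24.8% of all genes, and 0 passed at an unadjusted p under 0.05. Hspa5, the HSP70 of the ER known as BiP, had 1234 and 1070 CPM in KO and 937 and 1104 CPM in WT, with overlapping genotypes and a log2 change of 0.18 ± 0.14. Hsp90b1, the HSP90 of the ER, had 954 and 983 CPM in KO and 925 and 1010 CPM in WT, a log2 change of 0.00 ± 0.12. Dnajc3, which inhibits the kinase PERK, had 84.3 and 88.3 CPM in KO and 93.2 and 92.1 CPM in WT. Dnajb11, a BiP partner, had 65.3 and 63.2 CPM in KO and 58.8 and 44.1 CPM in WT, a log2 change of 0.31 ± 0.15. Its size depended on the libraries used: 0.53 without WT replicate 1, and 0.13 in the fit with the smallest value. The absence of a call is thus less firm for Dnajb11. Hspa13, Dnajb9, Dnajc1 and Dnajc10 had log2 changes of -0.15 to 0.20. The group includes the 3 genes with an ER stress element printed above. Hyou1, an ER exchange factor of the HSP110 type that lies outside the symbol rule, was higher, with 230 and 238 CPM in KO and 182 and 179 CPM in WT (log2 change 0.38, adjusted p 0.0223). The call of Hyou1 was lost with library totals.

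Among cytosolic HSP70 genes, the constitutive form rose and the heat-inducible forms did not. Hspa8, the constitutive form, had 2711 and 2599 CPM in KO and 1488 and 1780 CPM in WT, a rise of 0.70 ± 0.14 on the log2 scale (adjusted p 0.00355). The negative changes of the inducible forms did not pass the test. Hspa1a had 924 and 858 CPM in KO and 1122 and 1066 CPM in WT (log2 change -0.30, adjusted p 0.072). Hspa1b had 984 and 909 CPM in KO and 1167 and 1114 CPM in WT (-0.27, adjusted p 0.0987). With library totals both were called lower, at -0.47 and -0.45. The summed Hspa1a and Hspa1b counts were 0.704 and 0.680 times those of Hspa8 in KO and 1.54 and 1.23 times in WT, a ratio within each library that no scaling touches. The genotypes did not overlap in it (exact permutation p = 0.33, the smallest possible).

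Hspa1a and Hspa1b are near-identical copies, and the authors' counting could split or share their reads: Hspa1b over Hspa1a was 1.06 and 1.06 in KO and 1.04 and 1.05 in WT. Hspa1l, a related gene known chiefly from testis, had 191 and 165 CPM in KO and 233 and 226 CPM in WT and was called lower (log2 change -0.37, adjusted p 0.0352). Its counts were 0.207 and 0.192 of those of Hspa1a in KO and 0.208 and 0.212 in WT, so its value is uncertain for the same reason. The call was also lost by DESeq2 (adjusted p 0.142) and without KO replicate 2, WT replicate 1 or WT replicate 2.

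The HSP110 proteins, which exchange the nucleotide of HSP70 and help it dissolve aggregates, were all higher. Hspa4l had 120 and 139 CPM in KO and 66.8 and 73.2 CPM in WT, 1.85-fold higher and the largest rise among the members (log2 change 0.89 ± 0.13, adjusted p 0.000751). Hspa4 had 323 and 356 CPM in KO and 244 and 239 CPM in WT (0.49 ± 0.11, adjusted p 0.00776; 0.0584 with library totals). Hsph1 had 103 and 108 CPM in KO and 73.2 and 82.2 CPM in WT (0.45 ± 0.12, adjusted p 0.0185). Its call was lost with library totals (edgeR, adjusted p 0.111), by DESeq2 (adjusted p 0.0811), without KO replicate 2 and without WT replicate 1. KO and WT libraries did not overlap for any of the 3, nor for 71.9% of all genes. The largest rises were also chosen among members without overlap, so that trait adds no support for them. Per kb, Hspa4l stood at 0.373 and 0.393 of Hspa4 in KO and 0.276 and 0.307 in WT.

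The HSP70 members with the largest falls were less abundant ones. Hspa2, best known for its role in sperm development, had 27.8 and 23.9 CPM in KO and 77.9 and 87.7 CPM in WT, 3.19-fold lower (log2 change -1.67 ± 0.14, adjusted p 3e-05). Hspa12a had 10.4 and 9.76 CPM in KO and 22.2 and 19.4 CPM in WT (-1.05 ± 0.19, adjusted p 0.00268). Hspa12b, known from endothelium, had 9.05 and 9.76 CPM in KO and 19.0 and 16.8 CPM in WT (-0.93 ± 0.20, adjusted p 0.0058). The largest falls were chosen among members whose KO and WT libraries did not overlap, so that trait adds no support for these 3. Both Hspa12 genes are distant relatives of HSP70. The 4 endothelial markers summed to 0.0209% and 0.0228% in KO libraries and 0.0258% and 0.0282% in WT libraries, with 0 of 4 called, and fibroblast markers were lower in KO as given above; their part in these falls was not tested. Over the whole family of 14, 5 members were higher (35.7%, against 19.9% of all genes) and 4 lower (28.6%, against 19.1%). With library totals 3 were higher and 6 lower.

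**Figure D3:**
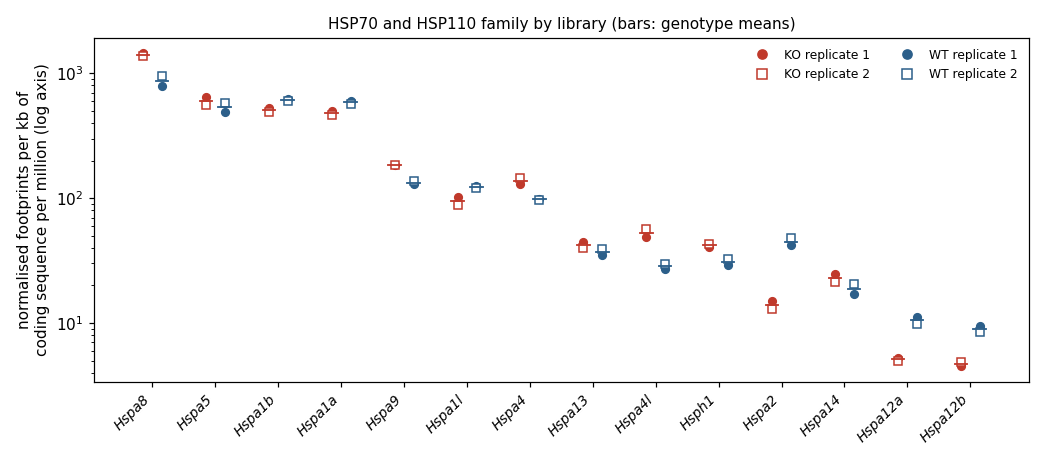
CPM per kb of coding sequence (vertical log axis) for the 14 members of the HSP70 and HSP110 family, with 1 point per library and a bar at each genotype mean, KO left of WT, sorted by level. Hspa8 and Hspa4l lie higher in KO, while Hspa2, Hspa12a and Hspa12b lie lower and Hspa5 overlaps.

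Both cytosolic HSP90 genes were higher in KO by a small margin. Hsp90ab1, the constitutive form, had 2605 and 2776 CPM in KO and 2151 and 2015 CPM in WT (log2 change 0.37 ± 0.13, adjusted p 0.0451). Hsp90aa1, the inducible form, had 536 and 495 CPM in KO and 376 and 427 CPM in WT (0.36 ± 0.12, adjusted p 0.0379). KO values lay above WT values for both. Neither call is firm. That of Hsp90ab1 was lost when any library was left out, and that of Hsp90aa1 without KO replicate 1 or WT replicate 1. Both were lost with library totals and by DESeq2 (adjusted p 0.0605 for Hsp90ab1 and 0.0993 for Hsp90aa1). Hsp90ab1 and Hspa8 also have processed copies in the genome that can share reads.

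Among small heat shock proteins, only falls passed the test, 2 of the 4 tested (50%, against 19.1% of all genes called lower). Hspb8, which works with Bag3 in clearing misfolded proteins, had 72.1 and 79.7 CPM in KO and 109 and 124 CPM in WT, 1.53-fold lower (log2 change -0.62 ± 0.13, adjusted p 0.00508). Bag3 moved the other way, with 88.0 and 101 CPM in KO and 60.5 and 70.6 CPM in WT (log2 change 0.53, adjusted p 0.0134); that call was lost with library totals. Hspb6, known from muscle, had counts of only 7 and 5 in KO and 27 and 12 in WT (-1.49 ± 0.43, adjusted p 0.0219; 0.0714 without KO replicate 2). Hspb7, also known from muscle, was not tested. It was listed with 18 and 15 footprints in WT and not listed in KO, where it can have had up to 4. As Hspb7 passed the listing limit through WT only, no fold is drawn from this bound. The 6 skeletal muscle markers in the table summed to 0.0416% and 0.0479% in KO libraries and 0.147% and 0.0572% in WT libraries, so the WT libraries differed between themselves. Of the 2 listed in every library, Des was called lower and Acta1, the more abundant, was not called (log2 change 0.10). Smooth muscle markers had the values given above, and the part of either cell type was not tested.

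Hspb1, the small heat shock protein of differentiating keratinocytes, was the most densely covered member, at 2650 and 2795 per kb in KO and 2458 and 1885 per kb in WT. The lowest KO value lay above both WT values, but the log2 change of 0.33 ± 0.15 did not pass (adjusted p 0.109; 0.0189 without WT replicate 1). Hspb2 (-0.68) and Hspb11 (-0.08) were not called, nor were the partner proteins Hspbp1 (0.38) and Hspbap1 (0.42). In order of mean level per kb over the 4 libraries, Hspb1 (2447 ± 399, SD) was followed by Hspa8 (1140 ± 321) and Hsp90ab1 (1128 ± 171). Of these, Hspa8 was the higher in both KO libraries and Hsp90ab1 in both WT libraries. Then came Hspa5 (569 ± 64.0), the higher in both KO libraries, and Hspa1b (558 ± 63.2), the higher in both WT libraries. Next were Hspa1a (532 ± 65.6), Hsp90b1 (412 ± 15.6) and Hsp90aa1 (214 ± 33.1).

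The DNAJ proteins, which are more numerous and were less densely covered, showed few changes. Dnaja2 and Dnaja1, general HSP70 partners of the cytosol, were the most densely covered of the class. Dnaja2 had 173 and 172 CPM in KO and 151 and 143 CPM in WT. Dnaja1 had 157 and 156 CPM in KO and 137 and 146 CPM in WT. Their log2 changes of 0.23 and 0.15 did not pass. Dnajb1, the heat-inducible partner of HSP70 in the cytosol, had 94.9 and 117 CPM in KO and 68.4 and 69.0 CPM in WT, a rise of 0.63 ± 0.14 on the log2 scale (adjusted p 0.00637). Dnajb1 was the only member of the class whose call held under every alternative.

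Dnajb6, which suppresses polyglutamine aggregates and carries the triplet printed above, had 62.7 and 67.4 CPM per kb in KO and 48.1 and 49.1 CPM per kb in WT (log2 change 0.42 ± 0.12, adjusted p 0.0232). Its call was lost with library totals (edgeR, adjusted p 0.158), by DESeq2 (adjusted p 0.142), without KO replicate 2 and without either WT library. Dnajc2, which works with Hspa14 at the ribosome exit as part of the ribosome-associated complex, had 25.6 and 25.6 CPM in KO and 18.3 and 18.5 CPM in WT (0.48 ± 0.16, adjusted p 0.038). Its call was lost when any library was left out and with the replicate number as a block (edgeR, adjusted p 0.052). It was also lost with library totals (edgeR, adjusted p 0.17) and by DESeq2 (adjusted p 0.235). Hspa14 had 166 and 135 footprints in KO libraries and 142 and 131 in WT, and its log2 change of 0.31 did not pass. With TMM scaling and all libraries, Dnaja4 was the only DNAJ gene called lower. It had 11.9 and 20.7 CPM in KO and 25.9 and 27.5 CPM in WT (-0.71 ± 0.23, adjusted p 0.0377). That call was lost by DESeq2 (adjusted p 0.107), without KO replicate 1, where the log2 change was -0.35, and without either WT library.

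Of the other densely covered DNAJ members, Dnajc5, a synaptic vesicle chaperone also found elsewhere, had 24.7 and 28.6 CPM in KO and 33.1 and 25.6 CPM in WT. Dnajc7, which binds both HSP70 and HSP90, had 74.8 and 82.3 CPM in KO and 61.0 and 64.6 CPM in WT (log2 change 0.32, adjusted p 0.0674). Over all genes tested, 19.9% were higher and 19.1% lower. By subclass, 0 of 4 class A genes were higher and 1 lower, 2 of 9 class B genes higher and 0 lower, and 2 of 21 class C genes higher and 0 lower. By DESeq2 these were 0 and 0, 1 and 0, and 0 and 0; at an unadjusted p under 0.05 they were 0 and 1, 2 and 2, and 3 and 0. The remaining members not called had log2 changes between -0.70 (Dnajb2) and 0.39 (Dnajc19). With library totals Dnajb4 was called lower (log2 change -0.54, edgeR, adjusted p 0.02). When 1 library was left out, the log2 change of Dnajb2 ran from -1.03 to -0.21. Another 4 DNAJ members, Dnajc6, Dnajb3, Dnajc12 and Dnajc28, were not listed in every library and were not tested. Dnajc6 was listed in WT only, with 49 and 35 footprints, and could reach 28 in KO. As Dnajc6 passed the listing limit through WT only, no fold is drawn from this bound.

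The regulators and partners of these chaperones were taken from lists made by function. Of the heat shock factors, which switch on chaperone genes, Hsf2 was lower, with 118 and 102 footprints in KO libraries and 372 and 216 in WT, or 26.0 and 23.7 CPM in KO and 65.4 and 49.9 CPM in WT (log2 change -1.22, adjusted p 0.000504). Hsf1, the factor of the heat shock response, had 31 and 47 footprints in KO libraries and 83 and 56 in WT, and its log2 change of -0.64 did not pass (adjusted p 0.0745). Hsbp1, which binds the factors, was not called, so 1 of 3 tested was called (33.3%, against 39.0% of all genes). With library totals, 2 of the 3 tested in this list were called lower. Whether these values bear on those of the chaperones was not tested.

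Of 24 HSP90 cochaperones tested, 7 were higher and 1 lower (33.3%, against 39.0% of all genes), with a median log2 change of 0.11; with library totals, 2 were higher and 5 lower. The largest changes were those of Ruvbl1, an ATPase of the R2TP complex, at 39.5 and 45.1 CPM in KO and 26.0 and 24.5 CPM in WT (log2 change 0.74), and Pih1d1, another R2TP subunit (0.65). Ptges3, the p23 cochaperone, was also higher (0.57), and Tomm34, a cochaperone of mitochondrial import, was lower, with 19.2 and 21.6 CPM in KO and 33.1 and 28.9 CPM in WT (-0.61). Their adjusted p ran from 0.00363 to 0.036. Of 13 HSP70 cochaperones and exchange factors, Bag3, Grpel1 and Hyou1 were higher and none was lower (23.1%, against the same 39.0%); with library totals 0 were higher and 1 lower. Of 11 prefoldin and phosducin-like genes, which bring clients to TRiC or bind it, Txndc9 (log2 change 0.58) and Pfdn5 (0.39) were higher and Pdcl (-0.49) lower (27.3%), while with library totals 1 was higher and 2 lower.

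Footprints outside the coding region give a separate readout of the same transcripts. In 5′ UTRs, the leaders before the start codon, members had 693 and 742 footprints in KO and 677 and 522 in WT, which is 0.915 and 1.04 per 100 coding ones in KO and 0.865 and 0.871 in WT. Over all genes the ratio was 1.45 and 1.69 per 100 in KO and 1.09 and 0.996 in WT. Of the 12 members with enough leader footprints, 0 changed in the ratio of leader to coding footprints by edgeR's test of genotype by region, against 1.17% of 1618 genes; 3 had an unadjusted p under 0.05. This test scales each region by TMM, so its changes are relative to the typical leader.

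Hspa1a had 100 and 85 leader footprints in KO and 152 and 129 in WT, or 2.39 and 2.30 per 100 coding ones in KO and 2.38 and 2.79 in WT. These ratios lay close together while the ratio over all genes was higher in KO, and the log2 change relative to the typical leader was -0.87 ± 0.22 (adjusted p 0.0804). For Hspa1b it was -0.68 (adjusted p 0.163), and both were called lower without WT replicate 1, at -1.04 and -0.81 (adjusted p 0.00676 and 0.0421). These 2 copies can share reads in the leader as well. Hspa5 had 1.43 and 2.02 per 100 in KO and 0.695 and 0.565 in WT (log2 change 0.70, adjusted p 0.193). Among these 12 members Hspb8 had the largest leader share on average, 23.2 and 35.3 per 100 in KO and 15.7 and 11.1 in WT (0.37, adjusted p 0.439).

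**Figure D4:**
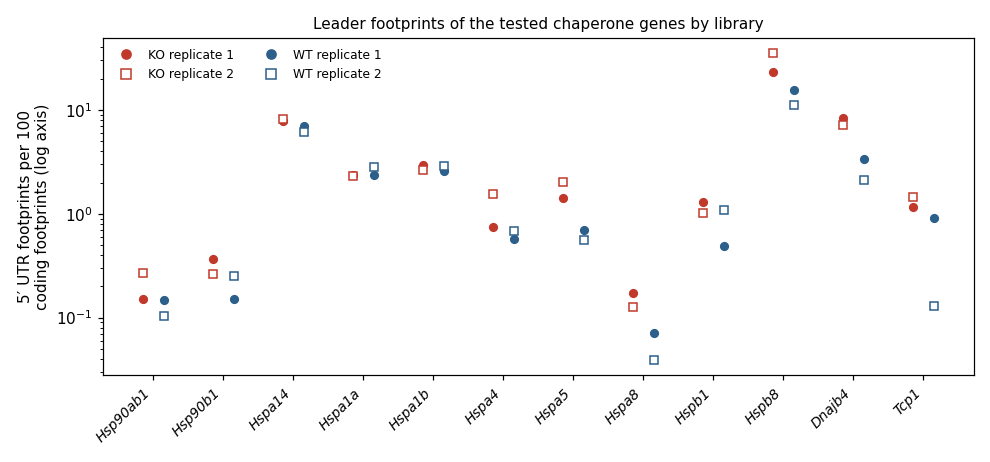
Footprints in the 5′ UTR per 100 coding footprints (vertical log axis) for the 12 members with enough leader footprints for a test, with 1 point per library and KO left of WT. Hspb8 lies highest at 23.2 and 35.3 in KO and 15.7 and 11.1 in WT; Hspa1a and Hspa1b lie between 2.30 and 2.98 in all libraries.

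In 3′ UTRs, beyond the stop codon, chaperone genes were nearly empty. Members had 69 and 79 footprints there in KO and 70 and 78 in WT, or 0.0911 and 0.111 per 100 coding ones in KO and 0.0894 and 0.13 in WT, while all genes had 0.57 and 0.611 per 100 in KO and 0.702 and 0.669 in WT. For 19 of the 73 members no 3′ UTR footprint was listed in any library. Dnajc5 was the single member with enough footprints for the test, with 1 and 5 in KO and 13 and 13 in WT; its ratio changed by -1.29 ± 0.66 on the log2 scale and did not pass (adjusted p 0.174), against 10.8% of 223 genes called. By edgeR 0 members had an unadjusted p under 0.05, and no other tool was run on the ratios. With a minimum of 5 counts in place of 10, 4 members were tested and Hspb1 was called higher, with 8 and 7 footprints in KO libraries and 2 and 1 in WT libraries (log2 change 2.77, adjusted p 0.0484). For the other members a change was not detectable at this depth.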

How the data were processed

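The authors deposited raw footprint counts per transcript region (5′ UTR, coding, 3′ UTR) with mm9 annotation, per the file headers. Bowtie2 2.2.6, TopHat2 2.0.10 and CASAVA 1.8 stand in the submitters' processing notes with no role. The sources used here do not say how reads matching several genes were counted. Per the file headers, 1 table holds footprints of 28 to 34 nt and the other of 20 to 22 nt, but they are byte-identical, so the length class is unknown. Counts are listed only where coding density exceeds 0.01 footprints per nt; 11017 transcripts were listed in all 4 libraries, and 10951 had at least 10 counts in at least 2. Rows without a symbol (4) were left out. Counts were scaled with TMM and tested with edgeR 4.0.16 (quasi-likelihood, Benjamini-Hochberg over all genes tested) in R 4.3.3; ratios of regions were tested as genotype by region. The scripts were tested on simulated data. The median transcript had 90 to 112 counts. Replicates differed by more than counting error (chi-square per gene with 1 degree of freedom, mean 5.50 in KO and 10.1 in WT), and the standard errors include that spread. The alternatives used library totals, DESeq2 1.42.0, filters, a replicate block, summed symbols and left-out libraries. Named in full were all Cct genes, the 8 most densely covered members of the Hsp and of the Dnaj class, the 6 largest rises and falls past the threshold (mean of at least 20 counts, no overlap), and up to 4 genes of each partner list; other members were named after their values were seen. Members and lists were chosen with earlier results of these data known.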

Additional observations from a re-analysis of the deposited data

How the results depend on the processing

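Under the 11 alternatives to the coding test, 11 of the 20 members called higher and 4 of the 7 called lower kept their call, and no called member changed direction. Calls lost under at least 1 alternative were those of Cct7, Cct8, Dnajb6, Dnajc11, Dnajc2, Hsp90aa1, Hsp90ab1, Hspa4 and Hsph1 among the rises and of Dnaja4, Hspa1l and Hspb6 among the falls. Library totals gave 11 members higher, with 5 in the Hsp class and 1 in the Dnaj class, and 2 Dnaj members lower. Calls gained with library totals were those of Hspa1a, Hspa1b and Dnajb4, all lower. With DESeq2 size factors Cct4 was called higher (edgeR, adjusted p 0.0473). DESeq2 gave 13 higher and 4 lower, with 1 higher and 0 lower in the Dnaj class; it called 2 of 24 HSP90 cochaperones higher and 0 lower, 1 of 13 HSP70 cochaperones higher, and 1 of 11 prefoldin and phosducin-like genes higher and 0 lower. Leaving out each library in turn gave 15 to 16 members higher and 4 to 7 lower, with 2 higher and 0 to 2 lower in the Dnaj class; the fewest lower calls came without WT replicate 1. The labels give replicate numbers but do not say whether same-numbered KO and WT libraries were paired. Deviations of same-numbered libraries correlated at -0.01, which cannot decide it with 1 contrast per genotype. With the replicate number as a block, 19 members were higher and 7 lower, and Dnajc2 alone lost its call. The share of the Hsp class, KO minus WT, became -0.0427 percentage points without Hspa8, Hsp90ab1 and Hspa5, whose log2 changes were all positive. That of the Dnaj class became 0.00864 with TMM-scaled library sizes. The 3′ UTR ratio of 1 member, Hspb1, was called with at least 5 counts, at a log2 change of 2.77 (adjusted p 0.0484) from 8 and 7 footprints in KO and 2 and 1 in WT; without each library in turn, 0 to 2 members were called in the 5′ UTR ratio.

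No value that changed direction had been called in its own test. With library totals, log2 changes were -0.17 for Hsp90b1, -0.025 for Dnaja1, -0.00082 for Hspa13, -0.16 for Dnaja3, -0.12 for Dnajc8, -0.11 for Dnajb9, -0.024 for Dnajc9, -0.033 for Dnajc21, -0.00059 for Dnajc15 and -0.0018 for Dnajc30. Dnajc25 was at 0.0073 with DESeq2 size factors and 0.0080 with DESeq2. Without each library in turn, Hsp90b1 ran from -0.070 to 0.064, Dnajc13 from -0.22 to 0.028, Dnaja3 from -0.038 to 0.097, Dnajc8 from -0.013 to 0.14, Dnajb12 from -0.054 to 0.032 and Dnajc5 from -0.31 to 0.047. Likewise Dnajb9 ran from -0.10 to 0.28, Dnajc9 from -0.063 to 0.36, Dnajc25 from -0.063 to 0.073, Dnajb5 from -0.27 to 0.20, Dnajc30 from -0.11 to 0.49 and Hspb11 from -0.20 to 0.047. In the 5′ UTR ratio, Hsp90ab1 ran from -0.30 to 0.34, Hspb1 from -0.73 to 0.51, Hsp90b1 from -0.46 to 0.35 and Tcp1 from -0.19 to 2.55 against 0.44 with all libraries; Hspa4, for which this gave values only without either WT library, was at -0.015 and 0.29, while at least 5 counts put Hsp90ab1 at 0.054 and Hsp90b1 at 0.027. The cause of these changes was not tested.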

Other observations

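Of 13 TRiC clients tested, actins and tubulins, 7 were higher in KO (53.8%, against 19.9% of all genes) and 0 lower (against 19.1%), with a median log2 change of 0.54; with library totals 5 were higher and 1 lower. Tubb2a had 633 and 658 CPM in KO and 262 and 247 CPM in WT, a rise of 1.34 on the log2 scale (edgeR, adjusted p 2.93e-05). Tubb2b rose by 1.16, Tubb3 by 1.04 and Tuba4a by 0.92, each past the threshold, and tubulin copies can share reads. The other 6, among them Actb, Tuba1a, Tuba1b and Tuba1c, were not called, with log2 changes of -0.25 (Tubb4b) to 0.54 (Tubg1).

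Of 17 other chaperones tested, 6 were higher and 2 lower (47.1%, against 39.0% of all genes), or 4 higher and 3 lower with library totals. Btf3 and Naca, which bind new proteins as they leave the ribosome, were higher by 0.90 and 0.70 on the log2 scale, with 339 and 341 CPM in KO and 187 and 176 CPM in WT for Btf3. Cryab, a small heat shock protein of muscle and lens outside the symbol rule, had 29 and 31 footprints in KO and 159 and 132 in WT, 4.28-fold lower (edgeR, adjusted p 4.81e-05). Serpinh1, the collagen chaperone, had 600 and 748 CPM in KO and 1025 and 1233 CPM in WT, 1.68-fold lower (adjusted p 0.0039). Of markers listed in every library, 4 of 6 for fibroblasts, 2 of 4 for smooth muscle and 1 of 2 for skeletal muscle were also called lower and none higher, and their part was not tested.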
